A study of Homo sapiens with 20 samples.

Results

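The responses of 2 human multiple myeloma cell lines, U266 and RPMI8226, to the same dose of indirubin-3'-monoxime (I3MO) were set against each other gene by gene. For each gene the quantity described is the response of U266 (I3MO minus DMSO) minus the response of RPMI8226 (I3MO minus DMSO), called the response difference here. A positive value means that the response of U266 was the higher one, whether U266 gained more or RPMI8226 lost more. The comparison used 8 of the 20 libraries of the series, 2 in each of 4 groups: U266 with I3MO, U266 with DMSO, RPMI8226 with I3MO and RPMI8226 with DMSO. The dose was 10 µM in both lines, DMSO was the vehicle, and the labels give both lines as wild type with bone marrow as the source. Each line is a single established line, and the time of exposure is not given in the sources used here. Nothing in the labels says whether 2 libraries of a group came from separate cultures, so p-values measure the spread between these libraries only, which may be technical. RNA sequencing of total RNA gave FPKM (fragment counts scaled by the length of the gene and the size of the library) for 60483 genes. The members are the 12515 genes with at least 1 FPKM in at least 2 of the 8 libraries, whatever their response.

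I3MO belongs to the indirubins, plant-derived and synthetic bis-indoles known to inhibit cyclin-dependent kinases and GSK3 and to bind the aryl hydrocarbon receptor. Myeloma cells are malignant plasma cells that make and secrete immunoglobulin, which loads the endoplasmic reticulum and draws on amino acid supply. When amino acids, heme or folding capacity run short, kinases that phosphorylate the initiation factor eIF2 favour translation of ATF4, which with CHOP switches on genes of amino acid import and synthesis, while entry into S phase depends on cyclin-dependent kinases that free E2F factors from RB proteins. The lines differ in their known drivers: U266 carries an insertion of immunoglobulin enhancer sequence near CCND1 and makes its own IL-6, and RPMI8226 carries a translocation that activates MAF.

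Short stretches of promoters are shown for 4 genes whose response differed: E2F2 of the replication list, ZNF367 and CDC25A, which are in no list but among the largest negative differences, and FGF21 of the ATF4 and CHOP targets. Sequences are from RefSeq (GRCh38.p14) and read 5′ to 3′ on the strand of the gene. Capitals mark an E2F site (TTTGGCGC or TTTCGCGC, searched on both strands) in the first 3 and the composite element of ATF4 and CHOP (TGATGNAAT, both strands) in FGF21, and all 4 stretches lie before the annotated start of transcription. The E2F2 stretch is at chr1:23531253-23531290 on the minus strand, that of ZNF367 at chr9:96418383-96418420 on the minus strand, that of CDC25A at chr3:48188439-48188476 on the minus strand and that of FGF21 at chr19:48755454-48755492 on the plus strand.
E2F2: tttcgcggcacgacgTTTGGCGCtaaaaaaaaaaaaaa
ZNF367: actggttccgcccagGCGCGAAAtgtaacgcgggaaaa
CDC25A: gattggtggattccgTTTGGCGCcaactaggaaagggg
FGF21: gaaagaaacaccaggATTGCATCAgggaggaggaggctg
The promoter window, 250 bases before to 50 bases after the start, was found for 8114 of the tested genes. An E2F site was present in 29 of 724 promoters of genes with a lower response in U266 (4.01%), in 3 of 536 with a higher response (0.56%) and in 175 of all 8114 (2.16%). Of the replication genes listed for this comparison, 12 of 33 windows held one (36.4%). Among these 12, MCM6, POLA1 and POLE2 were not called for the difference. The called ones are also part of the 29, so the shares are not separate. The ATF4 and CHOP element was in 6 of 536 windows of genes with a higher response (1.12%), in 0 of 724 with a lower response and in 39 of 8114 in all (0.48%), and FGF21 was the single ATF4 target with it among 23. The 6 windows hold 5 distinct elements, since FGF21 and its neighbour FUT1 share the same bases on opposite strands. A match describes letters in this window and is not a measured binding site, and these shares carry no test.

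The library size behind the FPKM was 13.7 to 20.3 M fragments, as recovered from the steps between FPKM values. Which genes this total counts is not known. Replicates correlated at r = 0.959 to 0.989 over the tested genes, but the U266 I3MO libraries stood apart. Their median absolute difference per gene was 0.20 on the log2 scale, against 0.08 to 0.09 in the other 3 groups, and replicate 1 exceeded replicate 2 by a median of 0.80 for small nuclear RNA and 0.64 for small nucleolar RNA genes, against 0.04 for protein-coding genes. Transcripts of the mitochondrial genome took 24.0% and 25.2% of all FPKM in U266 with I3MO, against 29.2% and 29.6% with DMSO, and 31.8% and 31.6% in RPMI8226 with I3MO, against 35.7% and 40.4% with DMSO. Of 10 plasma cell markers 8 had at least 1 FPKM in every U266 library and 7 in every RPMI8226 library. Their sum was 206 to 215 FPKM in U266 with I3MO, 467 in U266 with DMSO, 273 to 283 in RPMI8226 with I3MO and 354 to 385 in RPMI8226 with DMSO. XBP1, also a listed plasma cell marker, was at 0 in all 8 libraries. The reason was not found, and the value does not show that its transcript was absent. Summed T and NK cell markers came to 0.976 to 1.01 FPKM in U266 with I3MO, 1.29 to 1.47 in U266 with DMSO, 0.998 to 1.08 in RPMI8226 with I3MO and 1.09 to 1.11 in RPMI8226 with DMSO, and none of these 10 markers reached 1 FPKM in both libraries of a group. Myeloid markers summed to 1.28 to 3.17 FPKM in U266 with I3MO, 3.62 to 5.06 in U266 with DMSO, 32.9 to 33.0 in RPMI8226 with I3MO and 52.3 to 54.8 in RPMI8226 with DMSO. Of these, 1 marker, S100A9, had at least 1 FPKM in both libraries of a group, in RPMI8226 and in U266 with DMSO. Epithelial markers summed to 25.4 to 26.2 FPKM in RPMI8226 with I3MO and 23.9 to 25.9 with DMSO. In U266 they summed to 1.25 to 1.27 FPKM with I3MO and 1.02 to 1.05 with DMSO. Values are from bulk RNA, in which fewer cells of a type and less RNA per cell cannot be told apart.

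The response differed between the lines for 1816 of 12515 genes, 14.5% (limma on log2(FPKM + 1), Benjamini-Hochberg adjusted p under 0.05, n = 2 libraries per group). It was higher in U266 for 793 genes (6.34%) and lower for 1023 (8.17%), and 573 of the differences were at least 2-fold, 265 of them higher and 308 lower. With a further median-ratio scaling of the libraries the counts were 885 higher and 895 lower. Within U266, 3843 genes changed (30.7%), of which 1550 rose (12.4%) and 2293 fell (18.3%). Within RPMI8226, 2199 genes changed (17.6%), of which 937 rose (7.49%) and 1262 fell (10.1%). The median absolute response was 0.26 on the log2 scale in U266 and 0.19 in RPMI8226. The 1011 genes that changed in the same direction in both lines were 26.3% of the U266 calls and 46.0% of the RPMI8226 calls, and across all tested genes the responses correlated at r = 0.33, a description over genes, which are not independent replicates.

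**Figure D1:**
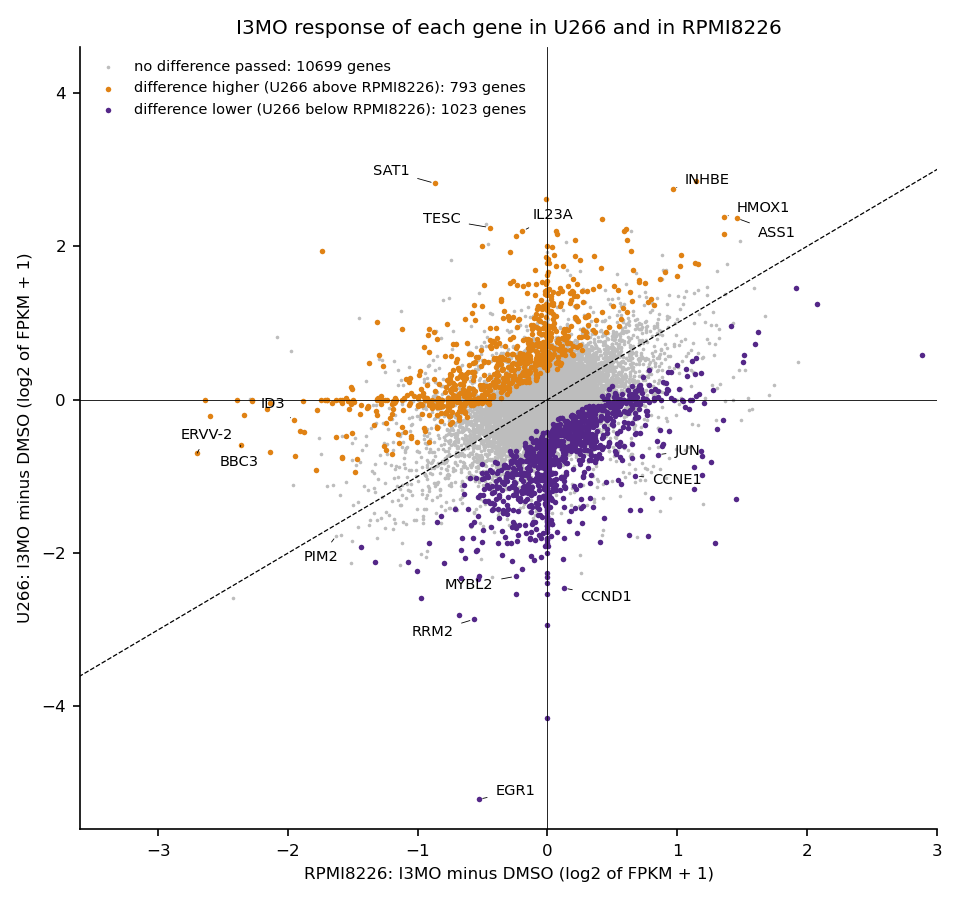
Response to I3MO of each of the 12515 tested genes, as the log2 difference of I3MO minus DMSO in RPMI8226 (x axis) and in U266 (y axis), with equal responses along the dashed line. The 793 genes with a higher response in U266 (orange) lie above the line and the 1023 with a lower one (purple) below it, with EGR1 at the bottom and SAT1 at the upper left.

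In the scatter of both responses many coloured points lie along the vertical arm, far from 0 for U266 and nearer to 0 for RPMI8226. Of the 1816 genes, 1030 passed within U266 and not within RPMI8226 (366 higher and 664 lower), and 422 passed within RPMI8226 and not within U266 (258 higher and 164 lower). A further 125 changed in the same direction in both lines by more in U266, and 51 by more in RPMI8226. In 137 the lines moved in opposite directions, 71 risen in U266 and fallen in RPMI8226 and 66 the reverse. The remaining 51 passed for the difference and in neither line alone.

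The number of calls depended on single libraries. Without replicate 1 or 2 of U266 with I3MO 3139 and 2959 genes were called, without replicate 1 or 2 of U266 with DMSO 675 and 711, without replicate 1 or 2 of RPMI8226 with I3MO 566 and 561, and without replicate 1 or 2 of RPMI8226 with DMSO 908 and 824. In each such fit the lone library was assumed to vary like the other groups. The U266 I3MO libraries spread most, and leaving out either of them takes that spread out of the fit. Calls kept there therefore do not show stability against this pair. Of the 1816 genes, 1656 were called without either U266 I3MO library in turn, and 472 under all 8 omissions. The counts of called members in the gene lists below were highest without a U266 I3MO library and lowest without another library, and ranges over the 8 omissions are given with them. The counts with all 8 libraries are to be read against the shares of all genes given above, which for the difference were 6.34% higher and 8.17% lower. Those shares do not apply to the ranges, since the calls over all genes also rose and fell with the library left out. Genes described below kept their call under all 8 omissions unless a limit is given beside them.

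In 625 of the 1816 genes all 4 libraries of 1 line were under 1 FPKM. RPMI8226 was the low line for 152 of the higher and 251 of the lower genes, and U266 for 165 and 57. With 0.1 added to FPKM in place of 1, 276 of these 625 were called, against 995 of the 1191 genes that reached 1 FPKM in both lines. Changes under 1 FPKM are compressed on the scale used, and a low line can still have changed. The fit takes a single variance per gene over the 4 groups. A low line with little spread can therefore make the standard error too small for the other line. Genes below with such a line include SYTL3, GDF15, CDKN2C, POU2F2 and IGKV3OR2-268. In IGKV3OR2-268 replicate 1 minus replicate 2 of U266 with I3MO was -0.68 on the log2 scale, and the standard error was 0.20 within each line.

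The largest positive response difference of all genes tested was that of SAT1, the enzyme that acetylates spermidine and spermine and so drives polyamine breakdown (ENSG00000130066.15, chrX:23783173-23786226, hg38, GENCODE 29). SAT1 levels were 19.5 and 22.7 FPKM in I3MO-treated U266, against 2.04 and 2.21 FPKM with DMSO. I3MO-treated RPMI8226 had 1.67 and 1.58 FPKM, against 3.84 and 3.73 FPKM with DMSO. All I3MO values lay above the DMSO values in U266 and below them in RPMI8226. The response difference of SAT1 was 3.69 ± 0.12 (SE; limma adjusted p = 0.00044), made of a rise of 2.82 in U266 and a fall in RPMI8226 (-0.87), and it was 2.28 with 5 added to FPKM in place of 1. TESC, a calcium-binding protein, moved the same way. With I3MO TESC stood at 61.7 and 55.6 FPKM in U266, against 12 and 11.1 with DMSO, and in RPMI8226 at 6.81 and 6.84 FPKM with I3MO, against 9.22 and 10.1 with DMSO. The 2 I3MO libraries were higher than the DMSO libraries in U266 and lower in RPMI8226, with a response difference of 2.69 ± 0.11.

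IL23A, which encodes the p19 subunit of interleukin-23 (chr12:56334174-56340410), was high in U266 and near 1 FPKM in RPMI8226. IL23A levels were 216 and 227 FPKM in I3MO-treated U266, against 48.6 and 46.3 FPKM with DMSO. I3MO-treated RPMI8226 had 0.937 and 0.992 FPKM, against 1.29 and 1.2 FPKM with DMSO. The libraries did not overlap between treatments in either line, and the change on the log2 scale was 2.199 in U266 and -0.19 in RPMI8226, a response difference of 2.39 ± 0.09 (limma adjusted p = 0.00044). FOSL2, an AP-1 subunit, rose in U266. With I3MO FOSL2 stood at 22.5 and 25.5 FPKM in U266, against 4.44 and 4.41 with DMSO, and in RPMI8226 at 1.2 and 1.14 FPKM with I3MO, against 1.08 and 1.07 with DMSO. In RPMI8226 all 4 values lay close to 1 FPKM, and the response difference was 2.14 ± 0.11. SYTL3, a synaptotagmin-like protein of vesicle traffic, had 26.9 and 28.7 FPKM in U266 with I3MO and 3.65 and 3.73 with DMSO, and reached at most 0.107 FPKM in RPMI8226, a response difference of 2.63 ± 0.10. STC2, a secreted stress glycoprotein, had 30.4 and 31.4 FPKM in U266 with I3MO, against 5.16 and 5.28 with DMSO, and 11.6 and 12.5 FPKM in RPMI8226 with I3MO, against 10.2 and 7.55 with DMSO, a response difference of 1.94 ± 0.18. For both genes the I3MO libraries of U266 lay above its DMSO libraries. A long noncoding RNA, LINC01610, also passed at 1.81 ± 0.18, as did FAM131B-AS2 at 1.81 ± 0.21, whose reads cannot be told from those of its sense partner where strand was not counted, and which was 1.12 with 5 added to FPKM. The gene of 7SK (chr6:52995620-52995950), the small nuclear RNA that holds P-TEFb inactive, had 114 and 89.1 FPKM in U266 with I3MO, against 24.2 and 24.3 with DMSO, and 6.85 and 4.33 FPKM in RPMI8226 with I3MO, against 7.53 and 8.83 with DMSO. This gave a response difference of 2.51 ± 0.29 (limma adjusted p = 0.0052), its reads may be shared with near-identical copies elsewhere, and small RNA classes are those in which the U266 I3MO libraries stood apart.

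Genes can also have a higher response in U266 because RPMI8226 fell. ERVV-2, an endogenous retroviral envelope gene, is the plainest of these. ERVV-2 levels were 4.0 and 4.15 FPKM in I3MO-treated U266, against 6.4 and 8.13 FPKM with DMSO. I3MO-treated RPMI8226 had 6.03 and 5.63 FPKM, against 41.7 and 45.1 FPKM with DMSO. I3MO libraries lay below DMSO libraries in both lines, with responses of -0.70 in U266 and -2.70 in RPMI8226 on the log2 scale, and the response difference was 2.00 ± 0.16. Its neighbour ERVV-1, which shares near-identical sequence so that reads may be split, fell in RPMI8226 to 8.3 and 10.9 FPKM with I3MO, against 47.6 and 44.7 with DMSO, and stood at 1.2 and 0.749 FPKM in U266 with I3MO, against 1.02 and 1.24 with DMSO, a response difference of 2.05 ± 0.22. BBC3, the BH3-only death inducer PUMA, showed the same shape. With I3MO BBC3 stood at 1.59 and 1.24 FPKM in U266, against 2.59 and 2.67 with DMSO, and in RPMI8226 at 0.563 and 0.547 FPKM with I3MO, against 8.31 and 5.89 with DMSO. Its groups did not overlap in either line, and the response difference was 1.77 ± 0.21 (-0.59 in U266 and -2.37 in RPMI8226), or 0.86 with 5 added to FPKM. ID3, an inhibitor of E proteins, had 24.5 and 24.7 FPKM in U266 with I3MO, against 28.5 and 31.2 with DMSO, and 1.4 and 1.75 FPKM in RPMI8226 with I3MO, against 9.01 and 8.93 with DMSO. The response difference of ID3 was 1.69 ± 0.12, and 0.85 with 5 added to FPKM.

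**Figure D2:**
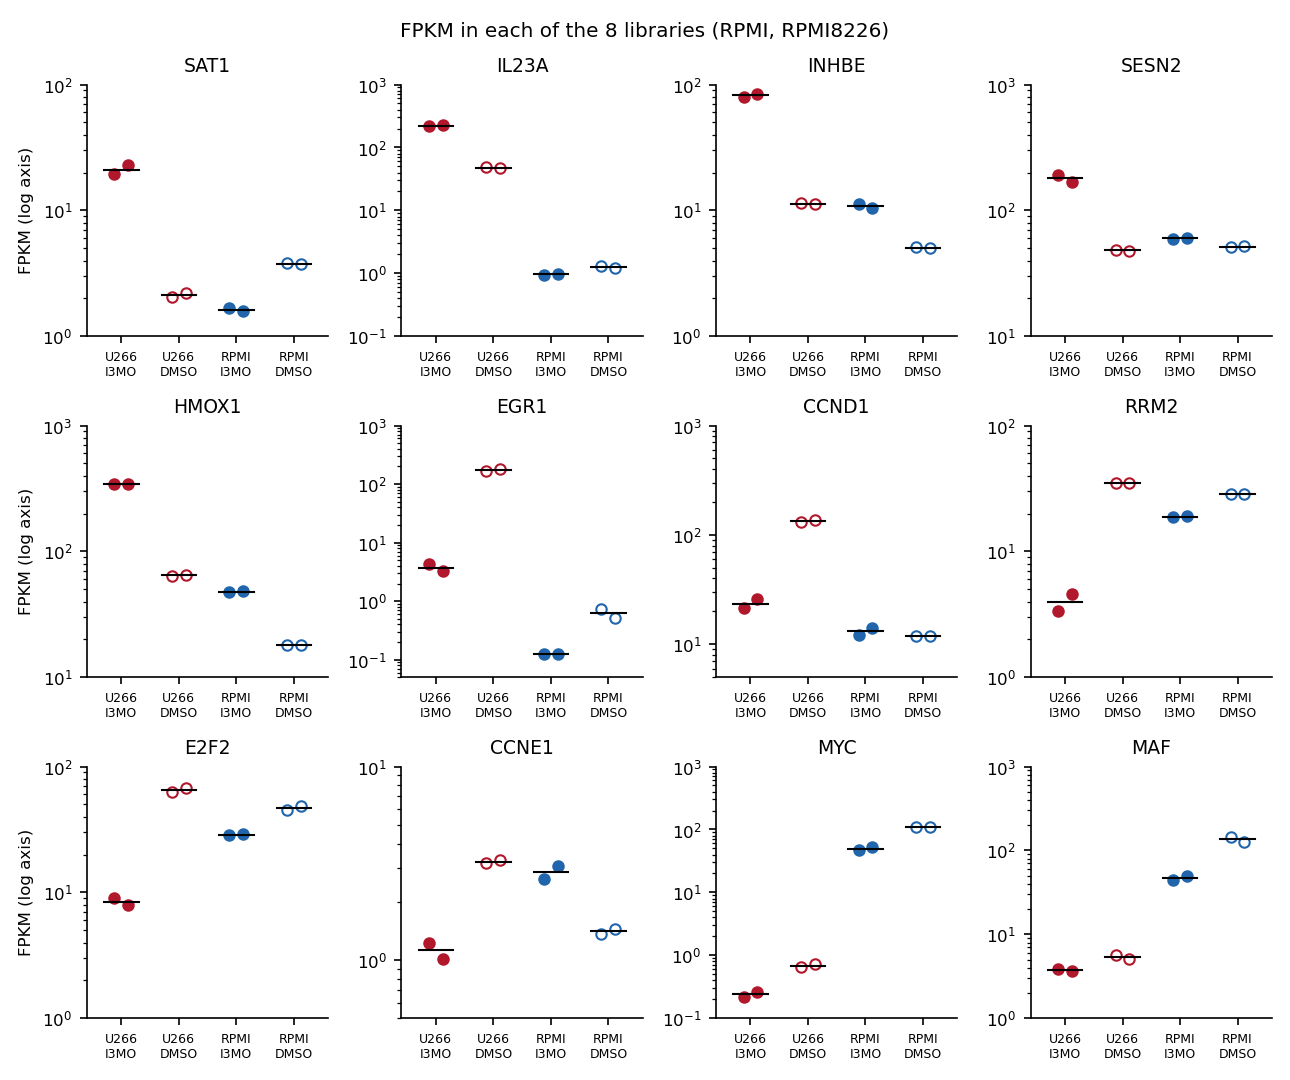
FPKM (log axis) of 12 genes in each of the 8 libraries, with U266 in red and RPMI8226 in blue, I3MO as filled and DMSO as open points, and the group mean as a black line. SAT1, IL23A, INHBE, SESN2 and HMOX1 sit higher with I3MO in U266, while EGR1, CCND1, RRM2 and E2F2 sit lower there.

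Most listed targets of ATF4 and CHOP had the higher response in U266. Of 26 listed targets, all tested, 17 had a higher response in U266 and 0 a lower one, against 6.34% and 8.17% of all genes. At an unadjusted p under 0.05, 21 were higher and 0 lower by limma, against 1677 higher and 2164 lower of all 12515 genes. Their median response difference was 0.93, against -0.02 over all genes. Within U266 24 of the 26 rose and 0 fell (median response 1.33), and within RPMI8226 7 rose and 1 fell (median 0.31). The omissions gave 12 to 21 members with a higher response and a lowest count of 12 without either DMSO replicate of U266 or either I3MO replicate of RPMI8226.

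INHBE, a secreted activin subunit that ATF4 induces (chr12:57452323-57459280), rose in both lines and by more in U266. INHBE levels were 79.9 and 84.7 FPKM in I3MO-treated U266, against 11.5 and 11.2 FPKM with DMSO. I3MO-treated RPMI8226 had 11.2 and 10.5 FPKM, against 5.13 and 5.01 FPKM with DMSO. No I3MO library overlapped a DMSO library of its line. The response was 2.75 in U266 and 0.96 in RPMI8226 on the log2 scale, a response difference of 1.79 ± 0.09 (limma adjusted p = 0.00058). SESN2, a sestrin that restrains mTORC1 when leucine is low (chr1:28259527-28282491), moved mainly in U266. With I3MO SESN2 stood at 190.4 and 168 FPKM in U266, against 48.7 and 47.4 with DMSO, and in RPMI8226 at 59.5 and 60.1 FPKM with I3MO, against 50.9 and 52.2 with DMSO. In RPMI8226 the groups were apart by a few FPKM, and the response difference was 1.66 ± 0.10 (limma adjusted p = 0.0012). TRIB3, a pseudokinase that feeds back on ATF4, had 103 and 95.2 FPKM in U266 with I3MO, against 21.2 and 20.4 with DMSO, and 34 and 31.7 FPKM in RPMI8226 with I3MO, against 20.5 and 22.6 with DMSO, a response difference of 1.61 ± 0.11.

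GDF15, a secreted stress hormone, had 65.7 and 61.8 FPKM in U266 with I3MO, against 22.8 and 20.7 with DMSO, and reached at most 0.0572 FPKM in RPMI8226, a response difference of 1.52 ± 0.10. FGF21, another secreted stress hormone, was picked for its promoter after its values were seen and was low throughout. It had 5.46 and 4.21 FPKM in U266 with I3MO, against 0.166 and 0.443 with DMSO, and 0.059 and 0.045 FPKM in RPMI8226 with I3MO, with both DMSO libraries listed at 0. The fitted response difference was 2.09 ± 0.21, or 0.87 with 5 added to FPKM. The transcription factors ATF5, CEBPB, CEBPG and JDP2, named after their values were seen, also had a higher response in U266, by 1.15, 1.32, 1.12 and 1.004 on the log2 scale, with JDP2 at 1.73 with 0.1 and 0.37 with 5 added to FPKM. ATF4 itself, the factor that is mainly controlled at translation, had 400.4 and 448 FPKM in U266 with I3MO, against 175 and 166 with DMSO, and 258 and 240.5 FPKM in RPMI8226 with I3MO, against 143 and 142 with DMSO. Its response difference was 0.51 ± 0.11 (limma adjusted p = 0.033) and passed under 2 of the 8 omissions, those of the U266 I3MO libraries, with adjusted p up to 0.13 in the other 6. DDIT3, which encodes CHOP, did not pass at 0.76 ± 0.19 (limma adjusted p = 0.05005), with 7.28 and 7.41 FPKM in U266 with I3MO, against 2.37 and 2.66 with DMSO, and 0.73 and 1.3 FPKM in RPMI8226 with I3MO, against 0.435 and 0.412 with DMSO.

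Transporters of amino acids were mixed. Of 13 tested, 5 had a higher and 2 a lower response in U266 (3 to 9 and 0 to 2 over the 8 omissions), with a median response difference of 0.58. SLC7A5, the light chain of the LAT1 exchanger of large neutral amino acids, had 234 and 224 FPKM in U266 with I3MO, against 82.7 and 88 with DMSO, and 138 and 145 FPKM in RPMI8226 with I3MO, against 114 and 115 with DMSO. Treatments were apart in both lines, and the response difference was 1.11 ± 0.09. Its heavy chain partner SLC3A2, named after its values were seen, rose in both lines, by 1.14 in U266 and 1.28 in RPMI8226 on the log2 scale, and the response difference of -0.13 ± 0.08 did not pass (limma adjusted p = 0.33). SLC1A4, a carrier of alanine, serine and cysteine, moved in opposite directions. Its FPKM were 39.6 and 44.2 in U266 with I3MO, against 17.9 and 19 with DMSO, and 27.5 and 28.5 in RPMI8226 with I3MO, against 40.8 and 43.9 with DMSO. The response difference was 1.72 ± 0.11. SLC6A9, a glycine transporter, rose in both lines and by more in U266, with a response difference of 0.61 ± 0.08.

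Enzymes of serine, one-carbon and amino acid synthesis were mixed: of 19 tested, 5 had a higher and 3 a lower response in U266 (2 to 9 and 0 to 5 over the omissions), while 13 rose in U266 and 10 in RPMI8226. ASS1, the enzyme that joins citrulline and aspartate in arginine synthesis, rose in both lines. With I3MO ASS1 stood at 90.1 and 87.8 FPKM in U266, against 16.7 and 16.1 with DMSO, and in RPMI8226 at 192 and 193 FPKM with I3MO, against 69 and 69.9 with DMSO. The response was 2.37 in U266 and 1.46 in RPMI8226, and the response difference of 0.91 ± 0.08 passed. SHMT2, the mitochondrial enzyme that splits serine into glycine and a one-carbon unit, had 31.8 and 30.2 FPKM in U266 with I3MO, against 7.78 and 7.53 with DMSO, and 30.9 and 29.4 FPKM in RPMI8226 with I3MO, against 14.2 and 14.2 with DMSO, a response difference of 0.85 ± 0.08. PHGDH, the first enzyme of serine synthesis, went the other way and was picked after its values were seen. It rose by 1.45 in U266 and 1.92 in RPMI8226 on the log2 scale, and its response difference of -0.46 ± 0.09 (limma adjusted p = 0.026) was kept under 3 of the 8 omissions and did not pass with 5 added to FPKM (-0.30, limma adjusted p = 0.05358). Of 20 cytosolic aminoacyl-tRNA synthetases 0 had a higher and 2 a lower response in U266 (0 to 4 each over the omissions), with 7 risen in each line. The lower share is near the 8.17% of all genes, and the 7 risen stand against 12.4% of all genes in U266 and 7.49% in RPMI8226.

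Many genes of folding and degradation in the endoplasmic reticulum rose in both lines. Of 31 tested, 21 rose in U266 and 17 in RPMI8226, and 4 had a higher and 2 a lower response in U266 (1 to 10 and 0 to 6 over the omissions). The rises stand against 12.4% of all genes in U266 and 7.49% in RPMI8226, and the differences against 6.34% higher and 8.17% lower. HSPA5, the chaperone BiP, was named after its values were seen and did not pass for the difference (0.80 ± 0.25, limma adjusted p = 0.087). HSPA5 levels were 618 and 924 FPKM in I3MO-treated U266, against 227 and 238 FPKM with DMSO. I3MO-treated RPMI8226 had 564 and 576 FPKM, against 305 and 308 FPKM with DMSO. The U266 I3MO libraries differed from each other more than the RPMI8226 ones did. ERN1, the sensor IRE1 alpha, rose by 0.36 in U266 and fell in RPMI8226 (-0.61), a response difference of 0.97 ± 0.11.

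**Figure D3:**
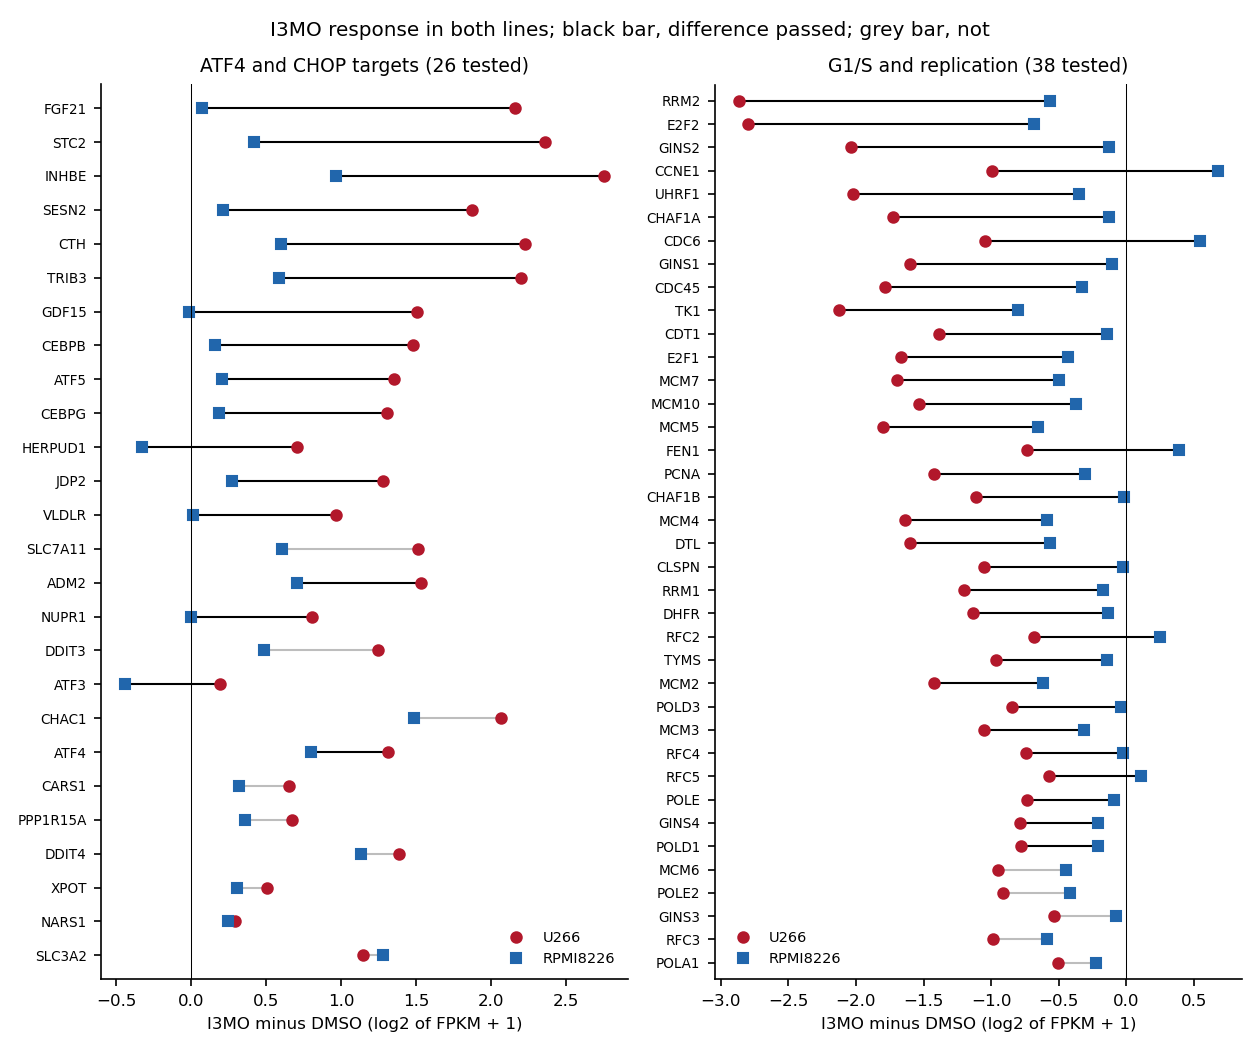
Log2 response to I3MO of 26 targets of ATF4 and CHOP and 38 genes of G1/S and replication, with a circle for U266 and a square for RPMI8226, joined by a black bar where the response difference passed and a grey one where it did not. Circles lie to the right of squares for the 17 ATF4 and CHOP targets that passed and to the left for the 33 replication genes that passed.

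Most listed genes of the G1/S transition and DNA replication had the lower response in U266. Of 39 listed genes 38 were tested, and 33 had a lower response and 0 a higher one in U266, against 8.17% and 6.34% of all genes. At an unadjusted p under 0.05, 37 were lower and 0 higher by limma, against 2164 lower and 1677 higher of all 12515 genes. The median response difference was -1.04. All 38 fell in U266 (median response -1.12), while 14 fell and 1 rose in RPMI8226 (median -0.21). Between 20 and 34 were called over the omissions, with 20 without either DMSO replicate of U266 and 21 without either I3MO replicate of RPMI8226. The plot of members shows both lists side by side, with the gap between lines on opposite sides.

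RRM2, the regulatory subunit of ribonucleotide reductase (chr2:10120698-10131419), fell in both lines and by more in U266. U266 had 3.36 and 4.59 FPKM with I3MO, against 35.1 and 34.8 with DMSO. RPMI8226 had 18.7 and 18.9 FPKM with I3MO, against 28.4 and 28.3 with DMSO. No I3MO library overlapped a DMSO library of its line. The response was -2.86 in U266 and -0.57 in RPMI8226, a response difference of -2.30 ± 0.16 (limma adjusted p = 0.0016). E2F2, an activator E2F whose promoter is shown above (chr1:23506430-23531220), fell in both lines as well. E2F2 levels were 8.95 and 7.97 FPKM in I3MO-treated U266, against 62.8 and 67 FPKM with DMSO. I3MO-treated RPMI8226 had 28.4 and 29.3 FPKM, against 45.4 and 48.5 FPKM with DMSO. This gave a response difference of -2.12 ± 0.11 (limma adjusted p = 0.00066). MYBL2, the B-MYB factor that carries cells from S phase into mitosis (chr20:43667019-43716496), had 25.5 and 25.4 FPKM in U266 with I3MO, against 128 and 132 with DMSO, and 69.5 and 70.6 FPKM in RPMI8226 with I3MO, against 83 and 83.4 with DMSO, a response difference of -2.06 ± 0.07.

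The other printed E2F sites are those of ZNF367 and CDC25A, which were taken from genes already called lower. ZNF367, a zinc finger factor, had 1.86 and 1.58 FPKM in U266 with I3MO, against 11.2 and 12 with DMSO, and 3.6 and 3.79 FPKM in RPMI8226 with I3MO, against 4.65 and 4.12 with DMSO. It fell in U266 and its RPMI8226 response of -0.20 did not pass, for a response difference of -2.01 ± 0.12 (-1.19 with 5 added to FPKM). CDC25A, the phosphatase that activates CDK2, fell in U266 and rose in RPMI8226. With I3MO CDC25A stood at 2.04 and 2.45 FPKM in U266, against 8.62 and 8.26 with DMSO, and in RPMI8226 at 15 and 15.1 FPKM with I3MO, against 11 and 10.7 with DMSO. The response difference was -1.98 ± 0.11, and -1.23 with 5 added to FPKM.

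Subunits of the replicative helicase and its loaders were among the lower genes. GINS2, a subunit of the GINS complex, had 4.1 and 4.36 FPKM in U266 with I3MO, against 21.3 and 19.7 with DMSO, and 18.1 and 18 FPKM in RPMI8226 with I3MO, against 20.3 and 19.3 with DMSO, a response difference of -1.91 ± 0.09. The licensing factor CDT1 had a response difference of -1.24 ± 0.08, and the histone chaperone CHAF1A one of -1.601 ± 0.10. DSCC1, part of an alternative clamp loader, stood at -2.26 ± 0.20, or -1.46 with 5 added to FPKM. Among genes chosen after their values were seen, the helicase subunits MCM5 and MCM7 stood at -1.14 ± 0.10 and -1.20 ± 0.09, thymidine kinase TK1 at -1.33 ± 0.17 (-0.88 with 5 added to FPKM) and the methylation maintenance factor UHRF1 at -1.67 ± 0.15 (-0.82 with 5). CCNE1, the cyclin E that partners CDK2, was also picked after its values were seen, since RPMI8226 moved the other way. CCNE1 levels were 1.23 and 1.02 FPKM in I3MO-treated U266, against 3.18 and 3.28 FPKM with DMSO. I3MO-treated RPMI8226 had 2.63 and 3.08 FPKM, against 1.36 and 1.45 FPKM with DMSO. CCNE1 fell by 0.99 in U266 and rose by 0.68 in RPMI8226, a response difference of -1.67 ± 0.13 (limma adjusted p = 0.0018), or -0.72 with 5 added to FPKM. CDC6, which loads the helicase and was picked after its values were seen, had 4.27 and 6.21 FPKM in U266 with I3MO, against 12 and 11.4 with DMSO, and 27.9 and 29.9 FPKM in RPMI8226 with I3MO, against 19.9 and 19 with DMSO, a response difference of -1.59 ± 0.20.

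Most listed mitosis genes fell in both lines. Of 27 tested, 26 fell in U266 and 17 in RPMI8226, and 8 had a lower response in U266 and 0 a higher one, with a median response difference of -0.34. Between 5 and 12 were called over the omissions, with 5 without replicate 2 of U266 with DMSO or replicate 2 of RPMI8226 with I3MO. CCNA2, cyclin A2, had 1.62 and 1.66 FPKM in U266 with I3MO, against 9.89 and 8.75 with DMSO, and 9.35 and 8.66 FPKM in RPMI8226 with I3MO, against 14.7 and 15.1 with DMSO. The fitted response difference was -1.29 ± 0.11, and -0.60 with 5 added to FPKM. BIRC5, survivin, fell to 3.11 and 3.31 FPKM in U266 with I3MO, against 9.97 and 9.48 with DMSO, and stood at 21 and 19.8 FPKM in RPMI8226 with I3MO, against 21.7 and 21.9 with DMSO. The response difference was -1.26 ± 0.09, and -0.77 with 5 added to FPKM. CDK1 and the checkpoint protein MAD2L1 stood at -1.05 ± 0.10 and -1.06 ± 0.10, and at -0.51 and -0.48 with 5 added to FPKM.

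Homologous recombination and crosslink repair genes had a lower response for 6 of 15 tested and a higher one for 0. FANCG, of the Fanconi core complex, stood at -1.31 ± 0.17 (-0.83 with 5 added to FPKM), and the nuclease EXO1 at -1.09 ± 0.11 (-1.75 with 0.1 and -0.43 with 5). The lower count was 10 without replicate 1 of U266 with I3MO, and 3 without either DMSO library of U266 or any library of RPMI8226, and 1 member was higher without replicate 2 of U266 with I3MO.

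Cyclins, CDKs and CDK inhibitors had a lower response for 7 of 23 and a higher one for 1 (6 to 8 and 1 to 4 over the omissions). CCND1, cyclin D1 and the driver gene of U266 (chr11:69641087-69654474), fell in U266. With I3MO CCND1 stood at 21.3 and 25.9 FPKM in U266, against 130.3 and 137 with DMSO, and in RPMI8226 at 12.2 and 14.1 FPKM with I3MO, against 12 and 11.8 with DMSO. In RPMI8226 the I3MO libraries lay just above the DMSO libraries, with a response of 0.13 that did not pass. The response difference was -2.58 ± 0.16 (limma adjusted p = 0.0012). CDKN2C, the CDK4 and CDK6 inhibitor p18, had 8.4 and 7.96 FPKM in U266 with I3MO, against 33.5 and 31.4 with DMSO, and was listed at 0 in all RPMI8226 libraries, a response difference of -1.86 ± 0.09. CDKN1C, the inhibitor p57, was the single gene of this list with a higher response. CDKN1C levels were 0.77 and 0.886 FPKM in I3MO-treated U266, against 0.201 and 0.231 FPKM with DMSO. I3MO-treated RPMI8226 had 0.434 and 0.351 FPKM, against 2.37 and 2.47 FPKM with DMSO. It was low in every library, and its response difference of 1.89 ± 0.13 was 3.91 with 0.1 and 0.62 with 5 added to FPKM. CCND3, cyclin D3, stood at -0.87 ± 0.10 (-1.47 with 0.1 and -0.34 with 5), fallen in U266 and risen in RPMI8226.

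The immediate early genes, first targets of growth factor and stress signals, were split. Of 21 tested, 9 had a higher and 7 a lower response in U266 (3 to 8 and 4 to 8 over the omissions), with a median response difference of 0.26, which was -0.22 over the 13 with a mean of at least 5 FPKM in the fit restricted to such genes. EGR1, a zinc finger factor induced through ERK (chr5:138465490-138469315), had the largest response difference in size of the genes named by the rule. With I3MO EGR1 stood at 4.27 and 3.23 FPKM in U266, against 169 and 179 with DMSO, and in RPMI8226 at 0.124 and 0.126 FPKM with I3MO, against 0.73 and 0.525 with DMSO. The groups did not overlap in either line, though RPMI8226 stayed under 1 FPKM throughout. EGR1 changed by -5.21 in U266 and -0.53 in RPMI8226 on the log2 scale, a response difference of -4.68 ± 0.17 (limma adjusted p = 0.00044). With 0.1 added to FPKM it was -3.83, made of -5.51 in U266 and -1.68 in RPMI8226. FOS had a lower response (-1.58 ± 0.13, or -0.67 with 5 added to FPKM). JUN fell in U266 and rose in RPMI8226. JUN levels were 16.3 and 13.8 FPKM in I3MO-treated U266, against 25.7 and 24.9 FPKM with DMSO. I3MO-treated RPMI8226 had 6.62 and 7.4 FPKM, against 3.36 and 3.53 FPKM with DMSO. Its response difference was -1.57 ± 0.13. Higher responses within the list included FOSL2, described above, and, picked after their values were seen, the orphan receptor NR4A2 at 1.29 ± 0.16 (2.73 with 0.1 and 0.42 with 5 added to FPKM) and IER5 at 0.93 ± 0.10.

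Phosphatases and other brakes on MAPK signalling had a higher response for 6 of 14 and a lower one for 1 (2 to 7 and 0 to 2 over the omissions). DUSP5, a nuclear phosphatase of ERK, fell in RPMI8226, and its U266 response of 0.03 did not pass. With I3MO DUSP5 stood at 143 and 145 FPKM in U266, against 149 and 134 with DMSO, and in RPMI8226 at 17 and 18.4 FPKM with I3MO, against 34.8 and 37.7 with DMSO. U266 libraries overlapped between treatments and RPMI8226 libraries did not, and the response difference was 1.02 ± 0.11 (limma adjusted p = 0.0045, but 0.19 in a fit of all 20 libraries of the series). DUSP4 rose in U266 and fell in RPMI8226, at 1.597 ± 0.13, 2.46 with 0.1 and 0.70 with 5 added to FPKM.

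Feedback genes of IL-6 and STAT3 had a lower response for 5 of 19 and a higher one for 1 (4 to 7 and 0 to 2 over the omissions). SOCS3, which STAT3 induces and which shuts off the receptor, fell in U266. Its FPKM were 10.8 and 11.3 in U266 with I3MO, against 51.3 and 48.5 with DMSO, and 1.67 and 1.54 in RPMI8226 with I3MO, against 1.92 and 0.963 with DMSO. The DMSO libraries of RPMI8226 enclosed its I3MO libraries, and the response difference was -2.197 ± 0.25 (limma adjusted p = 0.0050). JUNB had 97 and 77.6 FPKM in U266 with I3MO, against 319.6 and 309 with DMSO, and 27.3 and 28.1 FPKM in RPMI8226 with I3MO, against 35.6 and 30.02 with DMSO, a response difference of -1.61 ± 0.18. PIM1, a survival kinase, fell in both lines and had a response difference of -1.04 ± 0.12 (-0.50 with 5 added to FPKM). PIM2, its relative in plasma cells, fell in both lines. With I3MO PIM2 stood at 67.2 and 59.4 FPKM in U266, against 217 and 219.7 with DMSO, and in RPMI8226 at 52.8 and 54.3 FPKM with I3MO, against 164 and 171 with DMSO. The response of PIM2 was -1.77 in U266 and -1.63 in RPMI8226, and the difference of -0.14 ± 0.11 did not pass (limma adjusted p = 0.42). MCL1, the survival protein on which myeloma cells lean, had 27.6 and 35.6 FPKM in U266 with I3MO, against 76.3 and 74.9 with DMSO, and 16.1 and 18.5 FPKM in RPMI8226 with I3MO, against 17.6 and 16.7 with DMSO. This gave a response difference of -1.26 ± 0.18 (limma adjusted p = 0.010), and it did not pass without replicate 1 or 2 of U266 with DMSO or replicate 2 of RPMI8226 with I3MO (adjusted p up to 0.053).

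Interferon-stimulated genes had a lower response in U266 for 13 of 25 tested and a higher one for 3, with a median response difference of -0.65. Of the 25, 20 fell in U266 and 14 in RPMI8226. Between 6 and 17 had a lower response and 2 to 4 a higher one over the omissions. The lower count was 6 and 7 without replicate 1 and 2 of RPMI8226 with I3MO and 8 without either DMSO replicate of U266. MX1, an antiviral GTPase, had 2.85 and 2.77 FPKM in U266 with I3MO, against 17.2 and 18.3 with DMSO, and 3.6 and 3.65 FPKM in RPMI8226 with I3MO, against 5.54 and 5.77 with DMSO. It fell in both lines, and the response difference was -1.77 ± 0.09. USP18, which removes ISG15 and dampens the interferon receptor, had 5.74 and 6.68 FPKM in U266 with I3MO, against 37.6 and 33.1 with DMSO, and 0.366 and 0.442 FPKM in RPMI8226 with I3MO, against 0.988 and 1.08 with DMSO. In both lines the I3MO libraries of USP18 lay below the DMSO libraries, and the response difference was -1.80 ± 0.14. OAS1, the sensor of double-stranded RNA, went against most of the list. OAS1 levels were 50.4 and 56.3 FPKM in I3MO-treated U266, against 35.8 and 35.1 FPKM with DMSO. I3MO-treated RPMI8226 had 1.49 and 1.43 FPKM, against 3.41 and 3.1 FPKM with DMSO. It rose in U266 and fell in RPMI8226, a response difference of 1.36 ± 0.11 (0.88 with 5 added to FPKM). STAT2, named after its values were seen, stood at 0.76 ± 0.08 (0.36 with 5 added to FPKM). Among MHC class I genes 3 of 15 had a lower response and 0 a higher one (1 to 6 and 0 over the omissions), against 8.17% of all genes lower with all libraries. The lower count was 1 without either DMSO library of U266, either I3MO library of RPMI8226 or replicate 2 of RPMI8226 with DMSO, and 2 without replicate 1 of RPMI8226 with DMSO. TAP1, the peptide pump, stood at -0.86 ± 0.09.

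The 137 genes with responses in opposite directions separate the lines by sign, and 22 of them were named by the rule. CABLES1, an adaptor of cyclin-dependent kinases, rose in U266 and fell in RPMI8226. U266 had 49.3 and 56.5 FPKM with I3MO, against 18.3 and 17.8 with DMSO. RPMI8226 had 17.4 and 16.6 FPKM with I3MO, against 24.4 and 24.2 with DMSO. Neither line overlapped between treatments, and the response difference was 1.99 ± 0.11. IRF2BP2, a corepressor of IRF2, and PLEK, the platelet and leukocyte protein pleckstrin, took the same shape at 1.77 ± 0.09 and 1.76 ± 0.16, and PLEK was 1.13 with 5 added to FPKM. TNFRSF10B, the death receptor DR5, stood at 1.05 ± 0.11 (0.55 with 5), and TRAF1, an NF-kB target, at 1.10 ± 0.10 (0.60 with 5). In the reverse shape PFKP, the platelet form of phosphofructokinase, fell in U266 and rose in RPMI8226. PFKP levels were 11.5 and 11.4 FPKM in I3MO-treated U266, against 17.9 and 18.9 FPKM with DMSO. I3MO-treated RPMI8226 had 19.99 and 20.2 FPKM, against 15 and 14.5 FPKM with DMSO. The response difference was -1.06 ± 0.08. NQO1, a quinone reductase that NRF2 and the aryl hydrocarbon receptor induce, rose in RPMI8226 and its U266 response of -0.19 did not pass. With I3MO NQO1 stood at 4.42 and 4.73 FPKM in U266, against 5.56 and 5.19 with DMSO, and in RPMI8226 at 17.3 and 15.4 FPKM with I3MO, against 9.16 and 9.13 with DMSO. The fitted response difference was -0.96 ± 0.11.

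**Figure D4:**
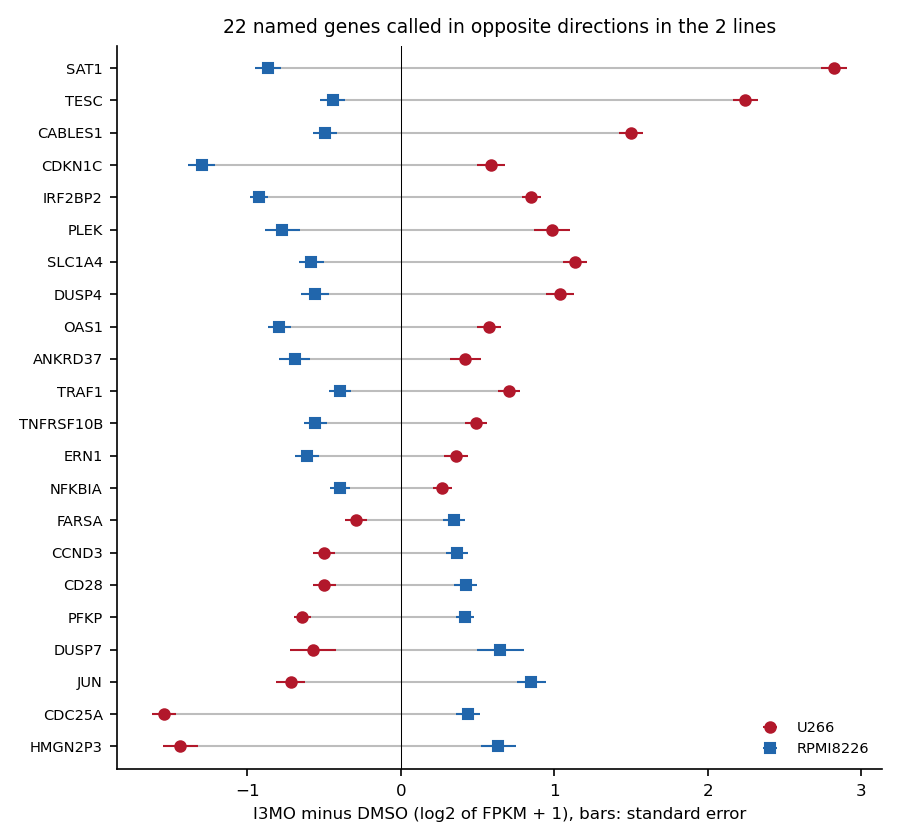
Log2 response to I3MO, with standard error bars from the fit, of the 22 named genes that changed in opposite directions in U266 (red) and RPMI8226 (blue). SAT1, at 2.82 in U266 and -0.87 in RPMI8226, spans the widest gap, and CDC25A, JUN, CD28 and PFKP show the reverse order.

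The plot of the 22 genes shows bars far shorter than the gap between lines for SAT1 and TESC. HMOX1, heme oxygenase 1 and a target of NRF2 (chr22:35380361-35394214), rose in both lines instead. HMOX1 levels were 343 and 343 FPKM in I3MO-treated U266, against 64.1 and 65.3 FPKM with DMSO. I3MO-treated RPMI8226 had 47.6 and 48.4 FPKM, against 18 and 18.1 FPKM with DMSO. Replicates differed by less than 2 FPKM within a group. The response was 2.39 in U266 and 1.36 in RPMI8226, a response difference of 1.03 ± 0.07 (limma adjusted p = 0.0016, but 0.51 in a fit of all 20 libraries of the series). Of 27 genes of NRF1, NRF2 and oxidative stress 1 had a higher and 4 a lower response in U266 (1 to 3 and 1 to 6 over the omissions), against 6.34% higher and 8.17% lower of all genes, and 8 rose in U266 and 11 in RPMI8226, against 12.4% and 7.49% of all genes.

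Driver genes differed widely in level between the lines. MYC was low in U266 and high in RPMI8226. With I3MO MYC stood at 0.217 and 0.261 FPKM in U266, against 0.651 and 0.721 with DMSO, and in RPMI8226 at 46.5 and 52.4 FPKM with I3MO, against 111 and 111 with DMSO. The response difference was 0.71 ± 0.11 (limma adjusted p = 0.011), did not pass without replicate 1 of U266 with DMSO (adjusted p = 0.055) and was -0.05 with 0.1 added to FPKM (adjusted p = 0.88), where MYC fell by 1.21 in U266 and by 1.17 in RPMI8226. MYCL, the relative that U266 expresses instead, showed the reverse levels. MYCL levels were 37 and 37 FPKM in I3MO-treated U266, against 77.1 and 73.4 FPKM with DMSO. I3MO-treated RPMI8226 had 0.504 and 0.418 FPKM, against 1.04 and 0.98 FPKM with DMSO. Its response difference was -0.55 ± 0.09 (limma adjusted p = 0.014), was kept under 3 of the 8 omissions, and was -0.04 with 0.1 added to FPKM (adjusted p = 0.90), with -1.02 in U266 and -0.99 in RPMI8226. MAF, the activated driver of RPMI8226, fell there. With I3MO MAF stood at 3.83 and 3.63 FPKM in U266, against 5.74 and 5.04 with DMSO, and in RPMI8226 at 44.5 and 49 FPKM with I3MO, against 144 and 126 with DMSO. Libraries did not overlap between treatments in either line, and the response difference was 1.08 ± 0.14. ITGB7, an integrin that MAF induces, had 4.56 and 4.03 FPKM in U266 with I3MO, against 9.3 and 9.46 with DMSO, and 177 and 175 FPKM in RPMI8226 with I3MO, against 172 and 185 with DMSO, a response difference of -0.95 ± 0.10 (-0.61 with 5 added to FPKM). ST6GAL1, a sialyltransferase, fell in U266 to 7.31 and 9.69 FPKM with I3MO, against 53.7 and 53 with DMSO, and reached at most 0.277 FPKM in RPMI8226, a response difference of -2.29 ± 0.17.

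Of 14 tested factors of B and plasma cell identity, 9 fell in U266 and 10 in RPMI8226, and 2 had a higher and 4 a lower response in U266 (1 to 5 and 3 to 5 over the omissions). POU2AF1, a coactivator of immunoglobulin genes, fell in both. POU2AF1 levels were 4.9 and 4.89 FPKM in I3MO-treated U266, against 25 and 28.4 FPKM with DMSO. I3MO-treated RPMI8226 had 14.2 and 14.7 FPKM, against 28.5 and 31.6 FPKM with DMSO. This gave a response difference of -1.22 ± 0.12 (limma adjusted p = 0.0032, but 0.053 in a fit of all 20 libraries). IKZF3, the Aiolos protein that lenalidomide sends to degradation, stood at -0.94 ± 0.12, and ELL2, an elongation factor of secretory immunoglobulin mRNA, at -1.41 ± 0.13. POU2F2, the octamer factor OCT2, had 0.607 and 0.777 FPKM in U266 with I3MO, against 5.25 and 5.48 with DMSO, and reached at most 0.0237 FPKM in RPMI8226, a response difference of -1.90 ± 0.13 (-0.86 with 5 added to FPKM). The pseudogene-like variable segment IGKV3OR2-268, whose reads may come from other kappa segments, fell to 2.15 and 4.03 FPKM in U266 with I3MO, against 68.7 and 70.7 with DMSO, and was listed at 0 in RPMI8226, a response difference of -4.15 ± 0.29.

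Surface antigens of myeloma, many of them therapy targets, had a lower response in U266 for 8 of 19 and a higher one for 2 (6 to 10 and 1 to 3 over the omissions). SDC1, the plasma cell antigen CD138 (chr2:20200797-20225433), fell in both lines. With I3MO SDC1 stood at 99.9 and 91.7 FPKM in U266, against 269 and 268 with DMSO, and in RPMI8226 at 52.6 and 52.7 FPKM with I3MO, against 71 and 63.4 with DMSO. The response was -1.48 in U266 and -0.34 in RPMI8226, a response difference of -1.13 ± 0.11 (limma adjusted p = 0.0030). CD28, a costimulatory receptor, fell in U266 and rose in RPMI8226, at -0.92 ± 0.10 (limma adjusted p = 0.0050, but 0.054 in a fit of all 20 libraries). CCR2, a chemokine receptor, had 2.07 and 1.61 FPKM in U266 with I3MO, against 13.7 and 12.7 with DMSO, and reached at most 0.899 FPKM in RPMI8226. Its response difference of -1.66 ± 0.13 was -1.001 with 0.1 added to FPKM, and did not pass in a fit of all 20 libraries (limma adjusted p = 0.21). Named after their values were seen, CD38, the daratumumab target, stood at 0.66 ± 0.08, CD44 at -1.03 ± 0.14 and CD79B at -1.09 ± 0.14. CD38 did not pass in a fit of all 20 libraries, where 0 of 8 tested plasma cell markers had a higher response. With 0.1 added to FPKM CD44 stood at -1.23 and did not pass (limma adjusted p = 0.0501) and CD79B at -1.67, and with 5 they stood at -0.52 and -0.58. TNFRSF17, which encodes BCMA, was also named after its values were seen and fell in both lines. Its FPKM were 47.9 and 55.9 in U266 with I3MO, against 115 and 109 with DMSO, and 23.6 and 20.5 in RPMI8226 with I3MO, against 45 and 50.8 with DMSO. The response difference of TNFRSF17 was -0.02 ± 0.16 and did not pass (limma adjusted p = 0.96). CXCR4, the homing receptor, stood at 0.03 ± 0.17 (limma adjusted p = 0.93), likewise chosen after its values were seen. Markers of other cell types moved in U266 too: PECAM1, alone among 6 endothelial markers to be tested, had 0.394 and 0.697 FPKM with I3MO, against 4.26 and 4.49 with DMSO, and HBD, 1 of 3 tested erythroid markers, had 2.36 and 2.78 FPKM with I3MO, against 11.9 and 11 with DMSO. Their response differences were -1.76 ± 0.17 and -1.94 ± 0.13, or -0.75 and -1.15 with 5 added to FPKM and, for HBD, -2.94 with 0.1. Both were seen before they were named, and the part of other cells in the results was not tested.

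**Figure D5:**
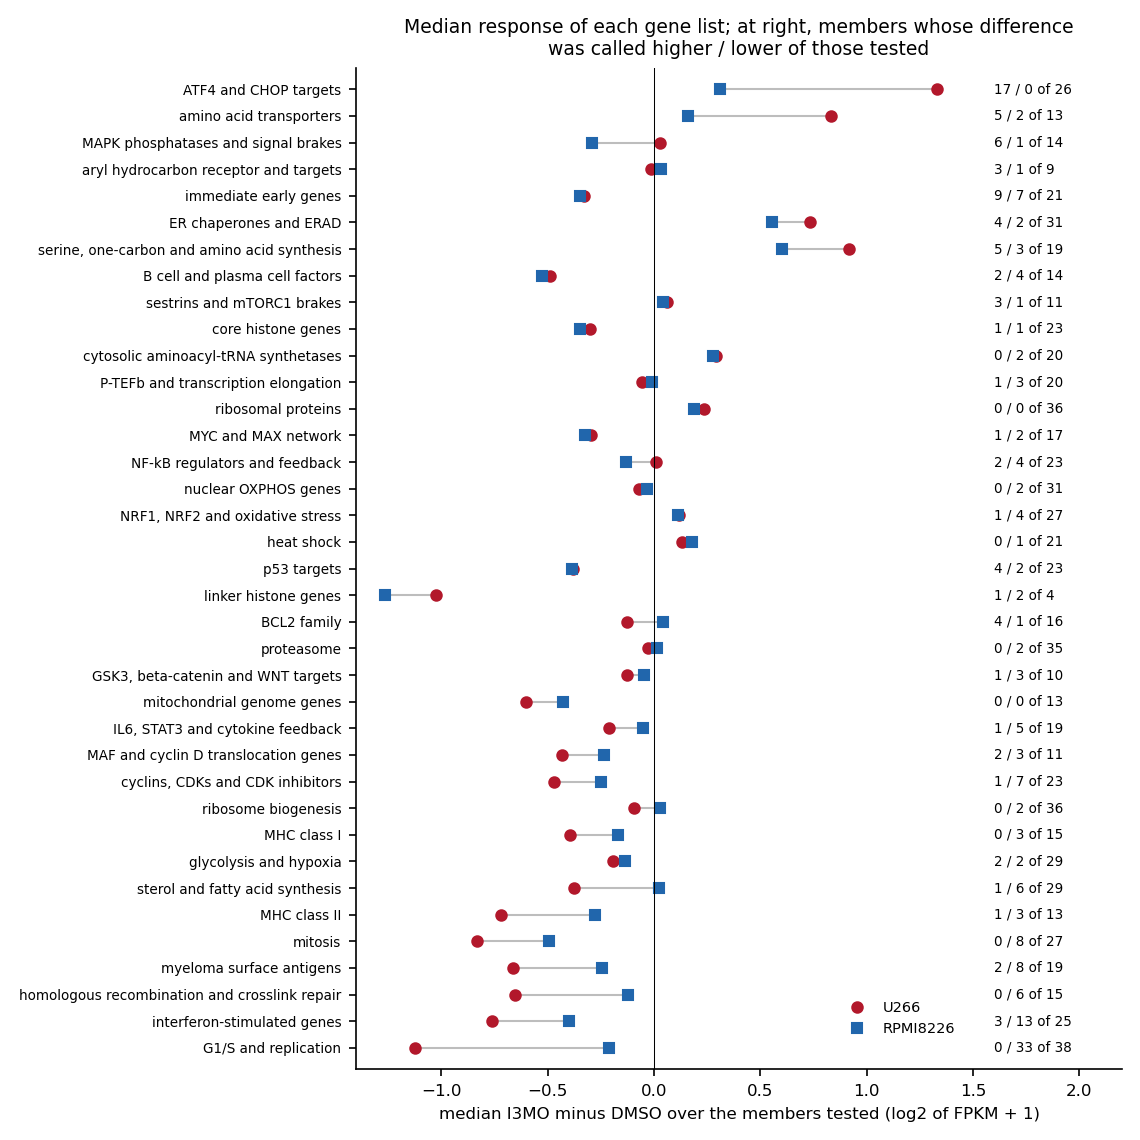
Median log2 response of the tested members of each of 37 gene lists in U266 and RPMI8226, ordered by the median response difference. The gap between the points of a list is not itself that median difference. At the right is the number of members higher and lower in U266 of those tested. ATF4 and CHOP targets (17 higher, 0 lower of 26) and G1/S and replication (0 higher, 33 lower of 38) lie at the extremes.

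Several groups gave few called differences between the lines, as the plot of list medians shows. By limma, ribosomal protein genes had 0 of 36 with a different response (2 at an unadjusted p under 0.05, and 0 to 1 in each direction over the omissions), and genes of the mitochondrial genome 0 of 13 (2 at an unadjusted p under 0.05, and 0 higher and 0 to 1 lower over the omissions). Proteasome genes had 2 of 35 lower and 0 higher, heat shock genes 1 of 21 lower and 0 higher, ribosome biogenesis genes 2 of 36 lower and 0 higher, and nuclear genes of the respiratory chain 2 of 31 lower and 0 higher. These counts lie below the 14.5% of all genes. At an unadjusted p under 0.05 by limma, proteasome genes had 0 higher and 5 lower, and heat shock genes 2 and 5. Ribosome biogenesis genes had 1 and 10, and respiratory chain genes 2 and 3. Of all 12515 genes, 3841 had such a p. By that threshold the shares of heat shock and ribosome biogenesis genes were near that of all genes. Over the omissions proteasome genes had 0 to 1 higher and 0 to 6 lower, heat shock genes 0 to 1 and 0 to 6, ribosome biogenesis genes 0 to 2 and 0 to 7, and respiratory chain genes 0 to 2 and 0 to 4. Without replicate 1 of U266 with I3MO, where 3139 of all 12515 genes were called, heat shock genes had 1 higher and 6 lower of 21, a larger share than that of all genes. Sterol and fatty acid genes had 6 of 29 lower and 1 higher (2 to 10 and 1 to 2 over the omissions), the higher one being SREBF1, their transcription factor. With I3MO SREBF1 stood at 1.4 and 1.21 FPKM in U266, against 1.45 and 1.41 with DMSO, and in RPMI8226 at 15.1 and 15.3 FPKM with I3MO, against 31.8 and 31 with DMSO. The fitted response difference was 0.92 ± 0.09, with the change in RPMI8226. EBP, an enzyme late in cholesterol synthesis, stood at -0.66 ± 0.08. Targets of the aryl hydrocarbon receptor had 3 of 9 higher and 1 lower (2 to 4 and 1 to 3 over the omissions). Their median response difference was 0.32, while the medians within lines were -0.01 in U266 and 0.03 in RPMI8226. The higher members included STC2 and SLC7A5, both described above, and SLC7A5 is also counted among the amino acid transporters. The listed targets CYP1B1 and AHRR were too low to be tested.

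Genes listed as known readouts of I3MO and its targets were described whatever their values. CYP1A1, the enzyme most used to read the aryl hydrocarbon receptor, had 0.24 and 0.136 FPKM in U266 with I3MO, against 0.186 and 0.169 with DMSO, and 0.791 and 0.75 FPKM in RPMI8226 with I3MO, against 1.29 and 1.37 with DMSO. The response difference of 0.41 ± 0.14 did not pass (limma adjusted p = 0.11). CDKN1A, the inhibitor p21, fell in both lines. CDKN1A levels were 30.3 and 26.3 FPKM in I3MO-treated U266, against 53.2 and 53.3 FPKM with DMSO. I3MO-treated RPMI8226 had 8.4 and 8.5 FPKM, against 16.6 and 14.8 FPKM with DMSO. The difference was -0.07 ± 0.12 and did not pass (limma adjusted p = 0.76). NFE2L1, the factor that restores proteasome genes, rose in both lines, by 0.68 in U266 and 0.63 in RPMI8226, with a difference of 0.05 ± 0.09 that did not pass (limma adjusted p = 0.77). HEXIM1, which inhibits P-TEFb and serves as a readout of it, stood at 0.43 ± 0.15 (limma adjusted p = 0.11), GSK3B at -0.02 ± 0.25 (limma adjusted p = 0.97) and BCL2 at 0.26 ± 0.11 (limma adjusted p = 0.17), none of which passed. A p that misses the threshold does not show that the lines respond alike.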

How the data were processed

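Of the 20 libraries of the series, 8 were used (U266 and RPMI8226, with 10 µM I3MO or DMSO, n = 2 each), grouped by the labels. The authors deposited FPKM values for 60483 genes, in 20 single tables identical to a joint one. Reads were trimmed with Trimmomatic (0.32 and 0.36 are named), aligned to hg38 with STAR and handled with SAMtools, per the submitters' processing notes. The counting tool and annotation are not given in the sources used here. GENCODE 29 gave symbols and positions (56753 genes with a symbol, 37168 with the same version). FPKM normalise for depth and gene length, so counting error is not modelled, and depth (13.7 to 20.3 M fragments) was recovered from FPKM steps. Where a gene is listed at 0, as many as 3 fragments are compatible with that value by counting error alone. Why XBP1 was listed at 0 throughout was not found.

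Genes with at least 1 FPKM in at least 2 of 8 libraries (12515) were fitted on log2(FPKM + 1) with limma 3.58.1 in R 4.3.3, a mean per group, an intensity trend and 4 residual degrees of freedom, and p-values were adjusted by Benjamini-Hochberg over all 12515 genes. Values after ± are standard errors of the fit. Fold changes on this scale understate the change of low genes. The fit was tested on simulated data.

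Genes were named by a rule: the 15 largest differences in each direction with a symbol, a mean of at least 5 FPKM and non-overlapping responses, up to 4 called members with the smallest p of each of 37 lists, and a set of genes whatever their values. That gave 154 genes, of which those kept under every omission of a library were mainly described, and names outside the rule are marked. Results of some of these genes are not reported here. Members, lists and rule were chosen with earlier results of these data known. Promoters of 8114 genes came from RefSeq. Tables were handled with Python 3.11.15, pandas 2.3.3 and numpy 2.4.6, and figures drawn with matplotlib 3.10.9. Alternatives were other pseudocounts, filters, scaling, trends, all 20 libraries, protein-coding genes alone, group weights, the replicate number as a block, and leaving out each library. The other 12 libraries were left out of the fit because they are other cell models.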

Additional observations from a re-analysis of the deposited data

Results flagged for a closer look

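The I3MO response differed between U266 and RPMI8226 for 1816 genes by the test of the difference itself (limma adjusted p under 0.05), 793 of them with the higher and 1023 with the lower response in U266. In 137 of these both lines changed and in opposite directions, 71 risen in U266 and fallen in RPMI8226 and 66 the reverse. Groups of 2 libraries are too small to look for single libraries that lie apart.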

How the results depend on the processing

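Over all alternatives the named genes and counts gave 2478 values on the same side of the threshold and in the same direction, 386 that no longer passed, 9 that newly passed and 8 that changed sign. Members of lists gave 600 median differences that moved little and 103 that moved by more. Counts within 1.5 times the 1816 were obtained with all other settings than the ones named here. Restricting the fit to genes with a mean of at least 5 FPKM gave 950 genes for the difference, 1784 for the I3MO response of U266 and 1316 for the I3MO response of RPMI8226, from fewer genes tested. Leaving out 1 library at a time gave 561 to 3139 genes for the difference, 1972 to 5018 for U266 and 535 to 3407 for RPMI8226, the highest without replicate 1 of U266 with I3MO. With the replicate number as a block, 1435 genes were called for the difference, of which 1364 were among the 1816, and same-numbered libraries deviated together by r = -0.05 to 0.07 over genes, so they share only a number. The sign of MYC turned to -0.048 with 0.1 added to FPKM. CDKN1A ran from -0.17 to 0.028 and GSK3B from -0.29 to 0.25 over the omissions, GSK3B was 0.026 with median-ratio scaling, and neither gene passed in the main comparison. The cause of these shifts was not tested. Protein-coding genes alone (2111) and group weights (1952) were alternatives added after the data were seen. Median-ratio scaling gave 1780 genes, 885 higher and 895 lower, so the larger number of lower genes depended on scaling. With 2 libraries per group and compressed values near 1 FPKM, small changes and changes of low genes are not resolved.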
